A study of Mus musculus with 26 samples.

Results

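The levels of 10 transcripts of the NF-kB pathway were compared between livers of mice fed a high-fat diet, treated with UCMSC-derived exosomes (UCMSC-Exos) or untreated. The 10 genes were the cytokines Tnf, Il1b and Il18, the decoy cytokine Il1rn, the inflammasome sensor Nlrp3, the subunits Nfkb2 and Relb, the feedback inhibitors Nfkbia and Tnfaip3, and the adhesion molecule Icam1. They were taken by name from a deposited count table of 55401 genes, and each symbol had 1 row. Bulk RNA-seq of whole liver was used. The treated group was 8 libraries of male C57BL/6 mice given UCMSC-Exos through the tail vein every 72 h for 8 weeks, and the untreated group was 9 libraries of male C57BL/6 mice on the same diet. Both groups began the diet at 4 weeks of age and stayed on it for 18 weeks. The sample notes call it high-fat, and the series description adds high cholesterol. The notes list no injection in the untreated group, so the exosomes and the injections cannot be told apart. No group on normal chow entered the comparison, and 9 further libraries of mice given a product called LSCR were not analysed here.

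NF-kB is a family of paired transcription factor subunits that IkB proteins hold in the cytoplasm. In the canonical route, receptors for TNF, interleukin-1 and microbial products activate the IKK kinases, which mark IkB for destruction and free dimers of RelA and p50 to enter the nucleus. In the non-canonical route, receptors such as CD40 and the lymphotoxin beta receptor act through the kinase NIK, and the Nfkb2 product p100 is trimmed to p52, the partner of RelB. Many NF-kB targets are themselves cytokines or inhibitors of the pathway. In fatty liver these transcripts come, in shares that differ by gene, from macrophages, hepatocytes, endothelial cells and stellate cells, so a bulk level joins them all. In such samples fewer cells of a type and less RNA per cell cannot be told apart.

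The DNA sites through which NF-kB acts are short, and those of the 10 genes were read from the RefSeq promoter windows (build GRCm38.p6, the 250 bases before each listed start). Windows were listed for 9 of the 10 genes, with 15 starts, and Relb had none. A kappaB consensus of 10 letters was searched on both strands, and 4 of these 9 genes held a match, in Nfkbia, Nfkb2, Tnfaip3 and Nlrp3. Counted by window, 6 of the 15 held a match, against 3.9% of all 32851 promoter windows of this length. Sites are shown for each of these 4 genes, for Nfkb2 at its first start alone. Of these 4 genes, Nfkb2 passed the test given below and the other 3 did not. Nfkb2 has further matches at later starts. Capitals mark the consensus match, with overlapping matches joined, and each run reads 5′ to 3′ on the gene's strand.
Nfkbia, chr12:55492657-55492686, minus strand, match from 29 bases before the start: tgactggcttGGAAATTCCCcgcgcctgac
Nfkb2, chr19:46304688-46304717, plus strand, match from 39 bases before the start: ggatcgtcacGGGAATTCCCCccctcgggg
Nfkb2, chr19:46304707-46304736, plus strand, match from 11 bases before the start: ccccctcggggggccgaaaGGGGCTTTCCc
Tnfaip3, chr10:19015516-19015545, minus strand, match from 125 bases before the start: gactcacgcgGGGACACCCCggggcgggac
Tnfaip3, chr10:19015411-19015440, minus strand, match from 12 bases before the start: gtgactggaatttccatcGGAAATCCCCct
Nlrp3, chr11:59541373-59541402, plus strand, match from 186 bases before the start: ggcttctgcaGGGAACCCCCgggaattctg

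The Nfkb2 and Tnfaip3 sites lie inside the gene spans that the deposited table gives, because each gene has an earlier start as well. The table, built on mm10, places Nfkb2 at chr19:46304320-46312385 on the plus strand and Tnfaip3 at chr10:19000910-19015657 on the minus strand. The Nfkbia and Nlrp3 sites lie before the spans of their genes, chr12:55489410-55492647 on the minus strand and chr11:59541568-59566956 on the plus strand. Whole windows are given for a pair of genes, Nfkbia, whose level was close in both groups, and Icam1, whose level was lower in treated livers. The Icam1 window held no consensus match. No match says only that these letters are not in this window.
Nfkbia, chr12:55492648-55492897, minus strand, consensus match in capitals: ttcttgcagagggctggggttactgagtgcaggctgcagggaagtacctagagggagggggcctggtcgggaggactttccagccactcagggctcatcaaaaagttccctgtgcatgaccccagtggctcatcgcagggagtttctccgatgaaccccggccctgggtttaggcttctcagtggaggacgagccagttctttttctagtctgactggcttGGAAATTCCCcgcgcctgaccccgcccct
Icam1, chr9:21015690-21015939, plus strand, no consensus match: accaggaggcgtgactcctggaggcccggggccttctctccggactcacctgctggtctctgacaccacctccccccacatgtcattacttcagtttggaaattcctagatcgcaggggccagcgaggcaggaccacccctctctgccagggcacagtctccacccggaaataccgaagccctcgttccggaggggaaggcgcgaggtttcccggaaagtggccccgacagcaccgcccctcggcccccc

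Library totals lay between 32941467 and 36065074 counted reads. The closest pair of libraries, UCMSC-Exos 2 and 3, still differed by 3.79 times the sampling noise, so all 17 were kept as separate samples. The following 3 libraries stood apart. UCMSC-Exos 9 lay at -49.6 on the first principal component, among the untreated libraries, against 30.64 to 63.17 in the other treated libraries. Untreated 3 held pancreas transcripts, with Ctrb1 at 4172 CPM (counts scaled to the effective library size), and untreated 9 held muscle transcripts, with Acta1 at 4260 CPM. The 13 mitochondrially encoded transcripts summed to 2953 CPM in untreated 3 and 61399 CPM in untreated 9, against 26805 to 48559 CPM in treated livers and 28247 to 38052 CPM in the other untreated livers. The 11 pancreas, fat and muscle markers summed to 9179 and 5599 CPM in untreated 3 and 9, against 0.885 to 3.44 CPM in treated livers and 0.708 to 3.77 CPM in the other untreated livers. Summed CPM of 10 hepatocyte markers was 45856 to 82555 in treated livers and 38199 to 57899 in untreated livers, so hepatocyte transcripts were abundant in every library.

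Of the 10 transcripts, 8 were fitted lower in treated livers, and 2 of them, Nfkb2 and Icam1, passed the test. Their fitted levels were lower by 0.41 and 0.46 on the log2 scale, and none of the 10 passed in the other direction. The edgeR test used an adjusted p of 0.05 over all 16238 genes tested, of which 10.4% passed as lower, 9.73% as higher and 20.2% in either direction. The median log2 change of the 10 was -0.43, against -0.02 over all genes tested, and 53.3% of all genes were fitted below 0. At an unadjusted p under 0.05 there were 5 of the 10, against 35.8% of all genes tested. In all 10 the groups overlapped, whereas 1.3% of all genes tested had groups that did not. All 10 passed the filter on low counts.

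Both calls lay close to the threshold. With RLE or upper quartile scaling, with no filter on low counts, or with surrogate variables, none of the 10 passed edgeR's test. Over all genes, 1581, 1647, 1062 and 855 passed as lower in these fits, against 1694 in the fit described above. The fit with no filter tested 31311 genes, and the others tested 16238. By DESeq2 3 of the 10 passed as lower, against 12.7% of genes tested, and by limma voom with quality weights 8 of the 10 passed as lower, against 25.5% of genes tested. With surrogate variables the log2 change of Il1b was -0.20, of Nlrp3 -0.29, of Relb -0.18 and of Tnfaip3 -0.14. By limma voom that of Il1rn was -0.84 and that of Relb -0.72.

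Single libraries moved the count of calls. Without UCMSC-Exos 9, 7 of the 10 passed as lower, against 20.6% of the 16326 genes tested in that fit. These were Il1b, Il1rn, Nlrp3, Nfkb2, Relb, Tnfaip3 and Icam1. Without untreated 8 there were 3, without untreated 5 or 7 there was 1, and without untreated 1, 2, 3, 4 or 6 or UCMSC-Exos 1, 2, 3, 5, 7 or 8 there were 0. Without untreated 9 or UCMSC-Exos 6 there were 2. The count over all genes moved too, and 1694 of 16238 passed as lower with all 17 libraries. In the fits with 0 of the 10, the fewest were 927 of 16398 without UCMSC-Exos 3. The most were 1851 of 16108 without untreated 3. Without untreated 8, 5, 7 or 9 or UCMSC-Exos 6, 1760, 1743, 1265, 1477 and 1444 genes passed as lower.

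**Figure D1:**
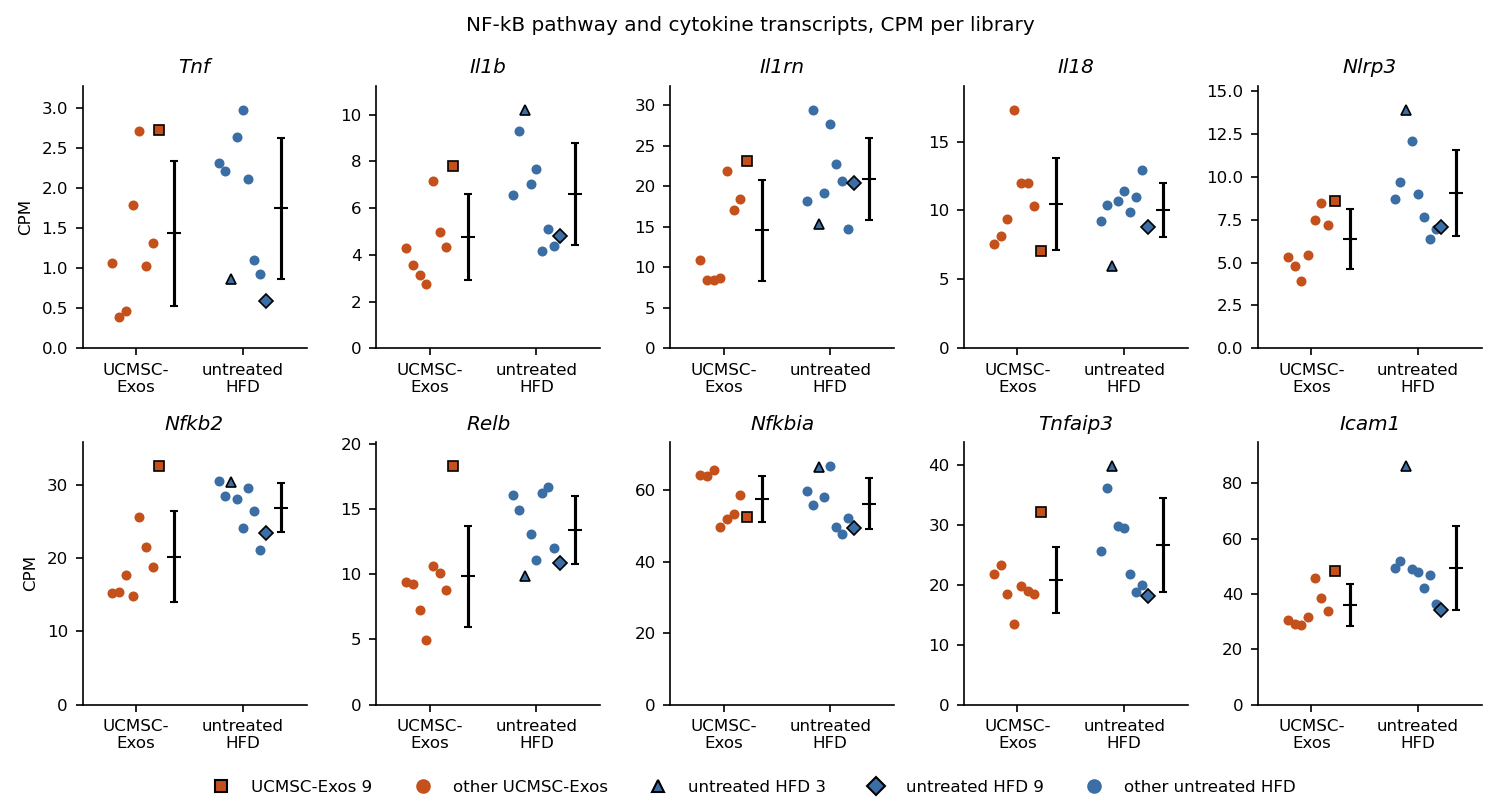
Level of each of the 10 transcripts in every library, in CPM on a linear axis from 0, with 8 UCMSC-Exos libraries on the left and 9 untreated livers on the right of each panel. Bars are mean and SD, and marked symbols are UCMSC-Exos 9, untreated 3 and untreated 9. The groups overlap in every panel, and UCMSC-Exos 9 is the highest treated library in 8 of 10.

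Tnf, the founding ligand of the TNF family and a product of activated macrophages, was scarce. It had a lowest, median and highest level of 0.393, 1.19 and 2.73 CPM in treated livers, against 0.585, 2.12 and 2.98 CPM in untreated livers. These levels rest on 12 to 116 reads in treated libraries and 21 to 101 reads in untreated libraries. The ranges overlapped almost wholly, with UCMSC-Exos 2 and 3 below every untreated library and UCMSC-Exos 9 the highest treated library. The fitted log2 change was -0.28 ± 0.40 (SE; 95% interval -1.11 to 0.55; edgeR adjusted p = 0.642), an interval wide enough to hold a clear change in either direction. Leaving out 1 library moved it to between -0.14 (without UCMSC-Exos 2) and -0.48 (without UCMSC-Exos 9), and it was -0.15 without untreated 5 or UCMSC-Exos 3 and -0.47 without UCMSC-Exos 6. By limma voom with quality weights the log2 change was -0.94 (limma adjusted p = 0.0396).

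Il1b encodes interleukin-1 beta, which is made as an inactive precursor and cleaved by caspase-1 in inflammasomes. Its lowest, median and highest levels were 2.76, 4.33 and 7.78 CPM in treated livers, against 4.15, 6.57 and 10.2 CPM in untreated livers. UCMSC-Exos 2, 3 and 5 lay below every untreated library, and UCMSC-Exos 6 and 9 lay above the untreated median. Its fitted log2 change was -0.46 ± 0.23 (SE; 95% interval -0.95 to 0.02; edgeR adjusted p = 0.153).

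Il1rn encodes the interleukin-1 receptor antagonist, which occupies the receptor without signalling, and hepatocytes make it as well as macrophages. It had 8.36, 13.9 and 23.1 CPM (lowest, median and highest) in treated livers, against 14.7, 20.4 and 29.4 CPM in untreated livers. UCMSC-Exos 1, 2, 3 and 5 lay below every untreated library, while UCMSC-Exos 6 and 9 lay above the untreated median. The fit gave a log2 change of -0.52 ± 0.22 (SE; 95% interval -0.99 to -0.05; edgeR adjusted p = 0.106). Divided by exon length (5535 bases for Il1rn and 1907 for Il1b), the antagonist and agonist transcripts were close in amount. In CPM Il1rn was the higher, with means of 14.6 against 4.76 in treated livers and 20.9 against 6.58 in untreated livers. Per length, the log2 ratio of Il1rn to Il1b averaged 0.04 ± 0.27 (SD, n = 8) in treated livers and 0.16 ± 0.53 (SD, n = 9) in untreated livers, a difference within the spread of either group.

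Il18, an interferon-gamma-inducing cytokine that is also released by inflammasome cleavage, was not fitted lower. It had 7.05, 9.85 and 17.3 CPM in treated livers (lowest, median and highest), against 6.0, 10.4 and 12.9 CPM in untreated livers. The highest of all libraries was UCMSC-Exos 5, the only treated one above every untreated library, and the lowest treated one was UCMSC-Exos 9. The log2 change was 0.06 ± 0.17 (SE; 95% interval -0.29 to 0.41; edgeR adjusted p = 0.825). Its sign depended on single libraries: it was -0.08 without UCMSC-Exos 5 and -0.01 without untreated 3, the library with pancreas transcripts.

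Nlrp3, the sensor of the inflammasome that activates caspase-1, lay under the median of the untreated livers in all 8 treated ones. It had 3.94, 6.29 and 8.58 CPM (lowest, median and highest) in treated livers, against 6.35, 8.73 and 13.9 CPM in untreated livers. UCMSC-Exos 1, 2, 3 and 5 were below every untreated library, and the highest untreated value was in untreated 3. Its fitted log2 change was -0.50 ± 0.18 (SE; 95% interval -0.88 to -0.12), just outside the threshold with an edgeR adjusted p of 0.0585.

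Of the subunits of the non-canonical arm, Nfkb2 passed the test and Relb did not. Nfkb2, which encodes p100 and p52, had 14.9, 18.3 and 32.6 CPM (lowest, median and highest) in treated livers, against 21.1, 28.1 and 30.6 CPM in untreated livers. The 5 treated libraries UCMSC-Exos 1, 2, 3, 5 and 8 lay below all untreated ones, and UCMSC-Exos 9 lay above them all. The level fell (log2 change -0.41 ± 0.14, SE; 95% interval -0.71 to -0.11; edgeR adjusted p = 0.0479). It passed without untreated 5, 8 or 9 and without UCMSC-Exos 6 or 9, and the call was lost in the other 12 of 17 fits that left out 1 library each (edgeR adjusted p between 0.00122 and 0.099). Without UCMSC-Exos 9 the log2 change was -0.55, and with surrogate variables it was -0.15. With untreated 3 and 9 left out together the call was lost (log2 change -0.41, edgeR adjusted p = 0.0693).

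Relb, the partner of p52, had 4.93, 9.33 and 18.3 CPM (lowest, median and highest) in treated livers, against 9.83, 13.1 and 16.7 CPM in untreated livers. The treated libraries reached both ends of the range: 5 lay below every untreated library, UCMSC-Exos 5 the lowest among them, and UCMSC-Exos 9 lay above them all. The fit gave a log2 change of -0.45 ± 0.19 (SE; 95% interval -0.84 to -0.05; edgeR adjusted p = 0.0998), and without UCMSC-Exos 9 it was -0.64 (edgeR adjusted p = 0.00298). Relb was scarce beside RelA, the main subunit of the canonical arm. The log2 ratio per length of Relb to Rela averaged -3.21 ± 0.51 (SD, n = 8) in treated livers and -2.61 ± 0.21 (SD, n = 9) in untreated livers. In UCMSC-Exos 9 that ratio was -2.21.

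Nfkbia and Tnfaip3 are targets of NF-kB whose products shut the pathway down again. Nfkbia encodes IkB alpha, and it was the most abundant of the 10 per length, with means of 35.7 RPKM (CPM per kilobase of exon) in treated livers and 34.9 RPKM in untreated livers. It had 49.7, 56.0 and 65.6 CPM (lowest, median and highest) in treated livers, against 47.7, 56.0 and 66.8 CPM in untreated livers. The medians were the same to 3 digits, 4 treated libraries lay on each side of the untreated median, and the spread was small, with a coefficient of variation of 11.3% in treated livers and 12.7% in untreated livers, against 63.1% and 50.3% for Tnf. The log2 change was 0.03 ± 0.08 (SE; 95% interval -0.14 to 0.21; edgeR adjusted p = 0.816). The lower bound of the interval does not reach the -0.26 fitted for Nfkb1, described below.

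Tnfaip3 encodes A20, an enzyme that edits ubiquitin chains on pathway adaptors. It had 13.4, 19.4 and 32.3 CPM (lowest, median and highest) in treated livers, against 18.1, 25.7 and 39.9 CPM in untreated livers. Only UCMSC-Exos 5 lay below every untreated library, 7 of 8 treated libraries lay below the untreated median, and UCMSC-Exos 9 was the highest treated one. Its fitted log2 change was -0.36 ± 0.18 (SE; 95% interval -0.73 to 0.02; edgeR adjusted p = 0.156). Per length, the log2 ratio of Tnfaip3 to Nfkbia averaged -3.66 ± 0.37 (SD, n = 8) in treated livers and -3.29 ± 0.29 (SD, n = 9) in untreated livers, and the ranges overlapped.

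Icam1 encodes an adhesion molecule of endothelial cells, Kupffer cells and hepatocytes that holds leukocytes through beta-2 integrins. It had 28.7, 32.8 and 48.3 CPM (lowest, median and highest) in treated livers, against 34.1, 47.8 and 86.2 CPM in untreated livers. The 5 treated libraries UCMSC-Exos 1, 2, 3, 5 and 8 lay below every untreated one, and the highest level of all was in untreated 3. The level fell (log2 change -0.46 ± 0.16, SE; 95% interval -0.79 to -0.12; edgeR adjusted p = 0.0498). It passed without untreated 8 or 9 and without UCMSC-Exos 6 or 9, and the call was lost in the other 13 of 17 fits that left out 1 library each (edgeR adjusted p between 0.0144 and 0.101). The fit gave a log2 change of -0.32 without untreated 3, -0.53 without UCMSC-Exos 9 and -0.20 with surrogate variables.

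**Figure D2:**
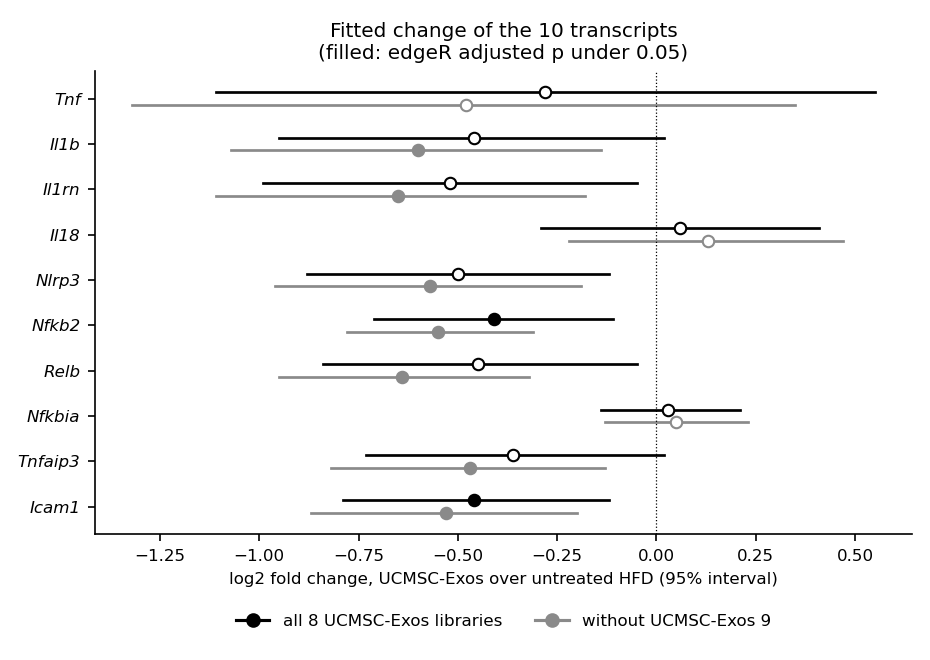
Fitted log2 change (UCMSC-Exos over untreated high-fat diet) of each of the 10 transcripts with its 95% interval, over all 8 UCMSC-Exos libraries in black and without UCMSC-Exos 9 in grey. Filled points passed edgeR's adjusted p of 0.05, which was 2 of 10 over all libraries and 7 of 10 without UCMSC-Exos 9.

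The treated libraries differed in how many of the 10 transcripts were low. In UCMSC-Exos 2, 3 and 5, 7 of the 10 lay below every untreated library, in UCMSC-Exos 1 there were 5, and in UCMSC-Exos 8 there were 3. In UCMSC-Exos 6, 7 and 9 none did. Of all genes tested, 23.2%, 23.9% and 23% lay below every untreated library in UCMSC-Exos 2, 3 and 5, 19.5% in UCMSC-Exos 1 and 17.1% in UCMSC-Exos 8. In UCMSC-Exos 6, 7 and 9 these shares were 19.5%, 18.6% and 13.5%. UCMSC-Exos 2, 3 and 5 were also the farthest from the untreated libraries on the first principal component, at 53.02, 57.34 and 63.17. The mean log2 deviation of the 10 from the untreated mean was lowest in UCMSC-Exos 3, at -0.75, and highest in UCMSC-Exos 9, at 0.18, with UCMSC-Exos 6 at 0.02. In the untreated libraries the same mean lay between -0.38 and 0.27, the lowest in untreated 9, the library with muscle transcripts. In UCMSC-Exos 9 the largest deviations above the untreated mean were 0.81 for Tnf, 0.47 for Relb and 0.33 for Tnfaip3 on the log2 scale.

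UCMSC-Exos 9 also stood apart in cell type markers. Summed CPM of 10 monocyte and lipid-associated macrophage markers was 757 in it, against 240 to 469 in the other treated livers and 507 to 878 in untreated livers. The highest of these untreated sums was in untreated 3, and without untreated 3 and 9 the untreated range was 507 to 792. Of these 10 markers, 7 passed the test as lower in treated livers, with a median log2 change of -0.97, and none was at 0 in all libraries. The 9 stellate cell markers summed to 2193 CPM in UCMSC-Exos 9, against 542 to 777 CPM in the other treated livers and 854 to 2437 CPM in untreated livers. Untreated 3 and 9 had stellate sums of 2437 and 2254 CPM. In the other untreated livers the range was 854 to 1731 CPM, below UCMSC-Exos 9. The 8 cholangiocyte markers summed to 619 CPM in UCMSC-Exos 9, against 69.9 to 147 CPM in the other treated livers and 135 to 553 CPM in untreated livers. The 10 Kupffer cell markers did not follow the same order, with 1125 to 1893 CPM in treated livers and 743 to 2214 CPM in untreated livers. The highest untreated Kupffer sum was in untreated 3, and without untreated 3 and 9 the untreated range was 743 to 1866 CPM. Of 12 neutrophil markers 8 could be tested, and their sum over the 12 was 17.1 to 44.1 CPM in treated livers and 22.7 to 36.1 CPM in untreated livers. The 8 sinusoidal endothelial markers summed to 528 to 739 CPM in treated livers and 549 to 670 CPM in untreated livers. The 12 T and NK cell markers had their highest sum in UCMSC-Exos 9, at 57.8 CPM. Of the markers, 4 stellate and 3 Kupffer genes passed as lower, while 2 Kupffer genes, 1 neutrophil gene and 1 endothelial gene passed as higher. Des, 1 of the 4 stellate genes (log2 change -3.46), is a muscle gene as well, and untreated 9 held muscle transcripts. The part of muscle in that call was not tested. No cholangiocyte marker passed in either direction in edgeR's test. Of all genes tested, 10.4% passed as lower and 9.73% as higher over all libraries. Without UCMSC-Exos 9, 6 of 8 cholangiocyte, 9 of 10 monocyte and lipid-associated macrophage and 7 of 9 stellate markers passed as lower. In that fit 20.6% of all genes tested passed as lower. Among the lists with more transcript in treated livers, 9 of 10 hepatocyte, 3 of 12 T and NK cell and 3 of 9 tested B and plasma cell markers passed as higher. The part of these cells in the levels of the 10 transcripts was not tested.

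**Figure D3:**
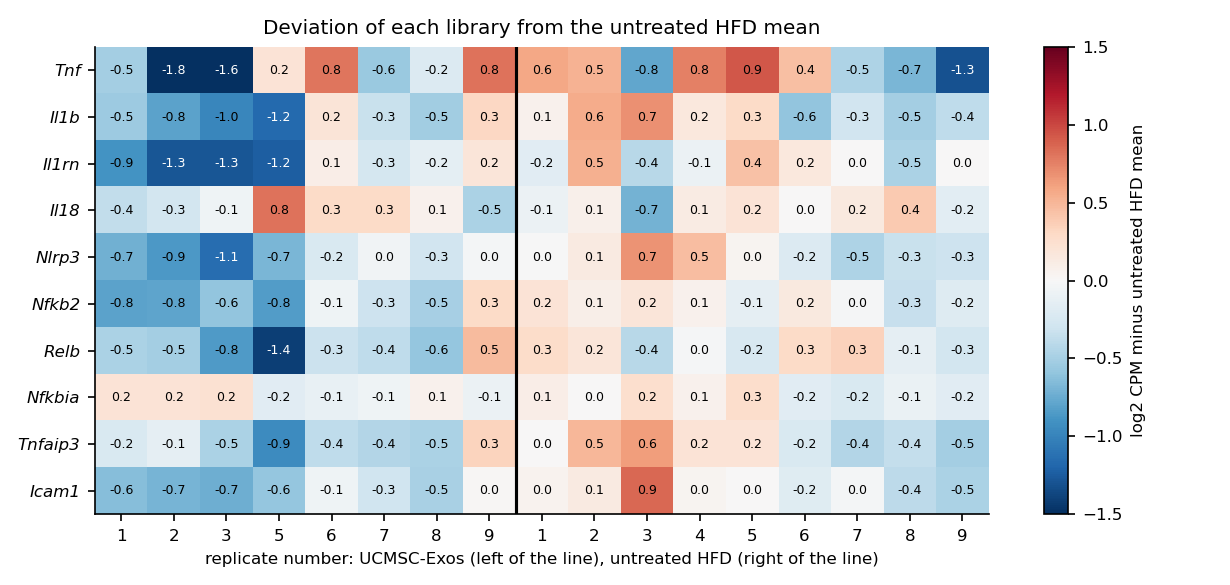
Log2 deviation of each transcript (rows) from its mean in untreated livers, in each of 8 UCMSC-Exos libraries (left) and 9 untreated livers (right), blue below and red above that mean. The bluest columns are UCMSC-Exos 1, 2, 3 and 5, Nfkbia stays pale in every library, and UCMSC-Exos 9 is mostly red.

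Around the 10 genes, 11 lists of pathway genes were read from the same fit, and some lists hold members of the 10 as well. The count passed in each list stands beside 10.4% of all genes tested passing as lower and 9.73% as higher. Among the 5 NF-kB subunits 2 passed as lower and none as higher, and the median log2 change was -0.26, against -0.02 over all genes tested. Nfkb1, which encodes p105 and p50, had 50.3, 53.6 and 72.3 CPM (lowest, median and highest) in treated livers, against 56.9, 67.0 and 83.1 CPM in untreated livers. It fell (log2 change -0.26 ± 0.08, SE; edgeR adjusted p = 0.029), with UCMSC-Exos 9 the highest treated library. The call was lost without UCMSC-Exos 1, 2, 3, 5, 7 or 8 (edgeR adjusted p up to 0.0642). Rela did not pass, with a log2 change of 0.08 (edgeR adjusted p = 0.357), and it is named here because it is the partner of Nfkb1, after its value was seen.

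Of 14 IkB proteins and feedback inhibitors, 4 passed as lower and none as higher, with a median log2 change of -0.17. Nfkbie, which encodes IkB epsilon, had 5.57, 6.62 and 13.7 CPM (lowest, median and highest) in treated livers, against 8.53, 13.1 and 15.7 CPM in untreated livers. In 6 of 8 treated libraries it lay below every untreated one, with UCMSC-Exos 9 above the untreated median, and the level fell (log2 change -0.72 ± 0.17, SE; edgeR adjusted p = 0.00762). The same search was made for a few genes outside the 10. It found a match before Nfkbie, shown here, and before the later of the listed starts of Il1r1, shown with that gene, and none in the windows of Il1rap and Rela.
Nfkbie, chr17:45555584-45555613, plus strand, match from 106 bases before the start: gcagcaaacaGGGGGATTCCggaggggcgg
Zc3h12a, an RNase that degrades cytokine transcripts, fell by 0.50 (edgeR adjusted p = 0.017), and Nlrc5, a regulator of MHC class I genes, fell by 0.41 in log2 units (edgeR adjusted p = 0.0141).

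Of 23 genes of the IKK complex and its adaptors, 2 passed as higher and 4 as lower. Of all genes tested, 9.73% passed as higher and 10.4% as lower. The median log2 change of the list was 0.00. Irak3, a kinase-dead brake on Toll-like and interleukin-1 receptor signals, fell by 0.65 in log2 units (edgeR adjusted p = 0.00911), with 2.22, 3.79 and 5.01 CPM (lowest, median and highest) in treated livers, against 4.81, 5.77 and 7.3 CPM in untreated livers. The shared adaptor Myd88 fell by 0.33 (edgeR adjusted p = 0.0248), and Rnf31, the catalytic subunit of the linear ubiquitin ligase, fell by 0.30 (edgeR adjusted p = 0.0275). The Myd88 call was lost without UCMSC-Exos 1, 2 or 3 (edgeR adjusted p up to 0.0571), and the Rnf31 call without UCMSC-Exos 1, 3 or 8 (edgeR adjusted p up to 0.0639). The 2 that rose were Chuk, which encodes IKK alpha, at a log2 change of 0.27, and Ticam1, the adaptor of Tlr3, at 0.36, both outside the naming rule and chosen after their values were seen.

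In the non-canonical arm 5 of 11 tested genes passed as lower and none as higher, with a median log2 change of -0.22. Tnfsf13b, the B cell survival ligand BAFF, had 0.467, 0.915 and 3.34 CPM (lowest, median and highest) in treated livers, against 1.62, 2.62 and 5.58 CPM in untreated livers. It fell (log2 change -1.38 ± 0.34, SE; edgeR adjusted p = 0.0108). Every treated library except UCMSC-Exos 9 lay below all untreated ones, and UCMSC-Exos 9 lay above the untreated median. The receptor Cd40 fell by 0.68 (edgeR adjusted p = 0.0329) and Traf3, which holds NIK in check, by 0.21 in log2 units (edgeR adjusted p = 0.0327). Each of these calls was lost in 9 of 17 fits that left out 1 library, with edgeR adjusted p up to 0.0711 for Cd40 and 0.0734 for Traf3. Leaving out untreated 1 or 2 or UCMSC-Exos 1, 2, 3, 7 or 8 ended both calls, untreated 6 or UCMSC-Exos 5 that of Cd40, and untreated 7 or UCMSC-Exos 6 that of Traf3. Summed CPM of 10 B and plasma cell markers was 94.9 to 155 in treated livers and 21.2 to 40.8 in untreated livers, the opposite order to that of BAFF.

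Of 9 genes for TNF processing, ligands and receptors, 2 passed as lower and none as higher, against 10.4% and 9.73% of all genes tested. Tnfrsf1a, the TNF receptor that most cells carry, fell (log2 change -0.23 ± 0.07, SE; edgeR adjusted p = 0.0258), with 106, 121 and 137 CPM (lowest, median and highest) in treated livers, against 118, 138 and 165 CPM in untreated livers. Tnfsf10, the death ligand TRAIL, fell (log2 change -0.80 ± 0.12, SE; edgeR adjusted p = 0.000197), with 11, 14.8 and 21 CPM (lowest, median and highest) in treated livers, against 18.4, 26.9 and 30 CPM in untreated livers. The Tnfrsf1a call was lost without UCMSC-Exos 1, 2 or 3 (edgeR adjusted p up to 0.0619). In 7 of 8 treated libraries TRAIL lay below every untreated one.

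Receptor chains made up most of the calls in the interleukin-1 family list. Of 12 tested genes, 4 passed as higher and 1 as lower, and the 4 are receptor chains. Il1r1, the signalling receptor for interleukin-1, had 88.6, 111 and 120 CPM (lowest, median and highest) in treated livers, against 53.4, 65.9 and 73.2 CPM in untreated livers. The groups did not overlap, UCMSC-Exos 9 included, and the level rose (log2 change 0.76 ± 0.07, SE; edgeR adjusted p = 3.91e-06). The kappaB match before a later start of Il1r1 reads as follows.
Il1r1, chr1:40266344-40266373, plus strand, match from 232 bases before the start: cagggattttGGAATGCCCCcaaggagatg
Il1rap, the accessory chain that Il1r1 needs to signal, rose (log2 change 0.72 ± 0.14, SE; edgeR adjusted p = 0.0017), with 71.4, 137 and 156 CPM (lowest, median and highest) in treated livers, against 56.5, 77.1 and 110 CPM in untreated livers. Its lowest treated library was UCMSC-Exos 9, which lay below the untreated median, and the other 7 lay above every untreated library.

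Il18r1, the interleukin-18 binding chain, rose (log2 change 1.12 ± 0.29, SE; edgeR adjusted p = 0.013), with 1.27, 2.9 and 4.05 CPM (lowest, median and highest) in treated livers, against 0.638, 1.22 and 2.7 CPM in untreated livers. Its partner Il18rap rose by 0.75 and Il33, an alarmin of the same family, fell by 0.77 on the log2 scale, both outside the naming rule and chosen after their values were seen. Summed CPM of 12 T and NK cell markers was 22.1 to 57.8 in treated livers and 20.3 to 30.9 in untreated livers. The highest was UCMSC-Exos 9, and the other treated libraries reached at most 47.6 CPM. Of the 12, Cd4, Cd2 and Trbc2 passed as higher. The NK cell markers Ncr1 (log2 change -0.99) and Klrb1c (-0.33) were fitted lower and did not pass. The sum of 10 hepatocyte markers is given above. The part of these cells in the receptor levels was not tested.

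**Figure D4:**
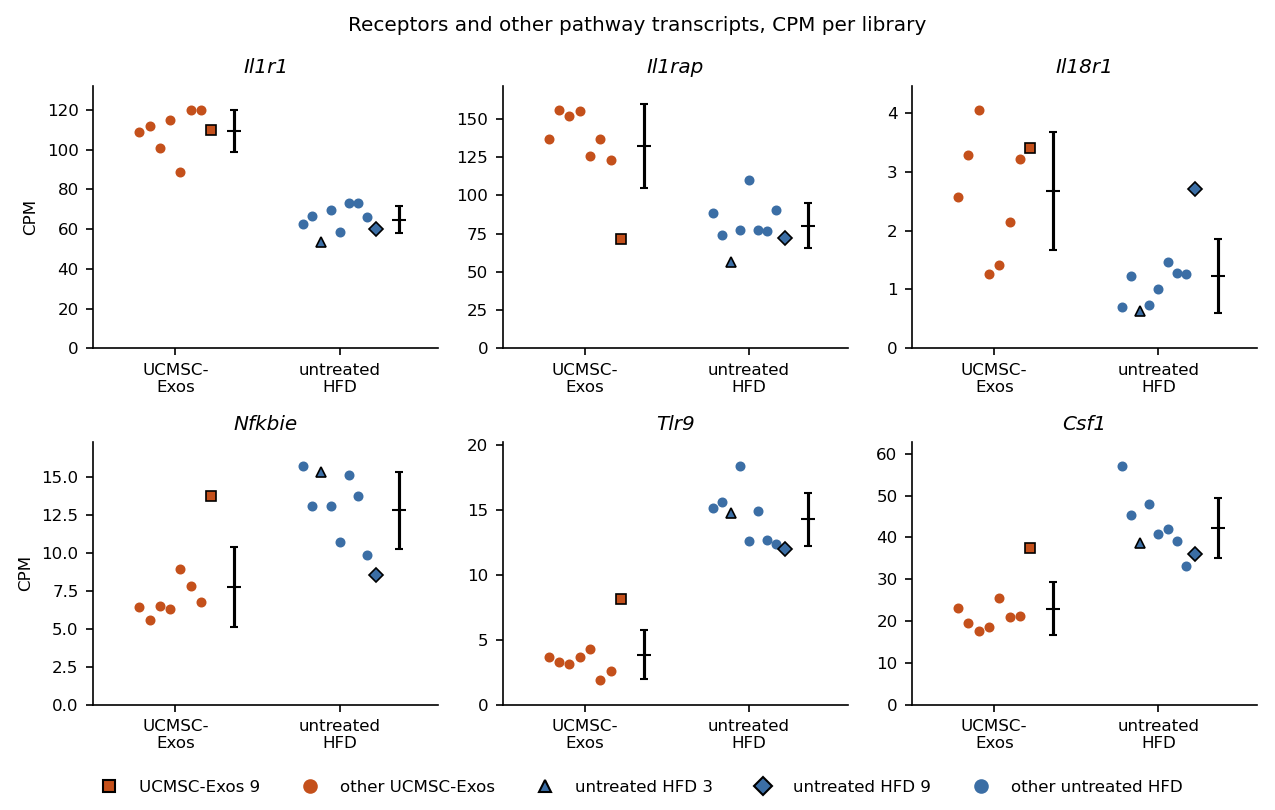
Level of 6 pathway transcripts in every library, in CPM on linear axes from 0, with 8 UCMSC-Exos libraries left and 9 untreated livers right in each panel, and bars for mean and SD. Il1r1 and Tlr9 separate the groups in every library, and UCMSC-Exos 9 lies with the untreated livers for Il1rap, Nfkbie and Csf1.

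Of 15 inflammasome genes, 6 passed as lower and 1 as higher, with a median log2 change of -0.42. Nlrp6, a sensor best known from gut epithelium, rose (log2 change 0.99 ± 0.15, SE; edgeR adjusted p = 0.000251), with 107, 263 and 301 CPM (lowest, median and highest) in treated livers, against 97.3, 120 and 152 CPM in untreated livers. UCMSC-Exos 9 was the lowest treated library, and the other 7 lay above every untreated one. Naip2 and Nlrc4, the receptor and scaffold of the inflammasome that detects bacterial secretion proteins and flagellin, fell by 0.61 (edgeR adjusted p = 0.00173) and by 0.44 in log2 units (edgeR adjusted p = 0.0179).

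Upstream of the pathway, 8 of 15 Toll-like receptors and co-receptors passed as lower and none as higher, with a median log2 change of -0.44. The 8 include Unc93b1, a chaperone of the endosomal receptors. Tlr9, the receptor for unmethylated CpG DNA, changed most among the named genes, with 1.93, 3.46 and 8.18 CPM (lowest, median and highest) in treated livers, against 12.0, 14.8 and 18.4 CPM in untreated livers. It fell (log2 change -1.89 ± 0.21, SE; edgeR adjusted p = 1.45e-05), and no treated library reached the untreated range, UCMSC-Exos 9 being the highest. Tlr3, the receptor for double-stranded RNA, fell by 0.83 (edgeR adjusted p = 0.000532), and Tlr13, which detects bacterial ribosomal RNA, fell by 0.71 in log2 units (edgeR adjusted p = 0.00841). These 3 receptors sit in endosomes, but the calls were not confined to endosomal receptors. Tlr1 (log2 change -0.6) and Tlr2 (-0.49), receptors of the cell surface, passed as lower as well. Of the other endosomal receptors, Tlr7 (-0.49) and Tlr12 (-0.62) passed as lower, and Tlr8 did not (-0.28, edgeR adjusted p = 0.228). The surface receptors Tlr4 (-0.12), Tlr5 (-0.43) and Tlr6 (-0.4) did not pass either. Unc93b1 and all Toll-like receptors here other than Tlr9, Tlr3 and Tlr13 are outside the naming rule and were chosen after their values were seen. Of the 10 monocyte and lipid-associated macrophage markers, whose sums are given above, 7 passed as lower in the same comparison, and their part in the receptor levels was not tested.

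Against 10.4% of all genes tested passing as lower, 2 of 11 tested adhesion molecules and integrins did. None passed as higher, and Icam1 was 1 of the 2. The other was Itgb2, the integrin chain that binds ICAM-1, which fell (log2 change -0.32 ± 0.11, SE; edgeR adjusted p = 0.0398), with 50.1, 62.2 and 89.1 CPM (lowest, median and highest) in treated livers, against 58.1, 78.0 and 95.1 CPM in untreated livers. That call was lost without untreated 2, 3, 4, 7 or 9 or UCMSC-Exos 1, 2, 3, 5, 7 or 8 (edgeR adjusted p up to 0.0836).

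Among other inflammatory cytokines 2 of 9 tested genes passed as lower and none as higher, against 10.4% and 9.73% of all genes tested. The median log2 change of the list was -0.61. Csf1, the growth factor of macrophages, fell (log2 change -0.88 ± 0.14, SE; edgeR adjusted p = 0.000371), with 17.6, 21.1 and 37.6 CPM (lowest, median and highest) in treated livers, against 33.2, 40.8 and 57.1 CPM in untreated livers. Il15, which sustains NK and memory T cells, fell by 0.86 (edgeR adjusted p = 0.00431). Of 19 other NF-kB target genes, 1 of them Nfkbie again, 6 passed as lower and none as higher, with a median log2 change of -0.24. The chemokine Cxcl16 fell (log2 change -0.88 ± 0.17, SE; edgeR adjusted p = 0.00228) and the chemokine Ccl3 fell (log2 change -1.07 ± 0.29, SE; edgeR adjusted p = 0.0156). Cxcl16 had 13.3, 17.1 and 34.3 CPM (lowest, median and highest) in treated livers, against 26.0, 37.3 and 43.0 CPM in untreated livers, and its highest treated library was UCMSC-Exos 9.

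Some of these calls depended on the model. With surrogate variables the calls of Nfkb1 (log2 change -0.09), Traf3 (-0.12), Itgb2 (-0.14), Nlrc4 (-0.32), Zc3h12a (-0.35), Nlrc5 (-0.45), Cd40 (-0.48), Irak3 (-0.49) and Rnf31 (-0.27) were lost. The log2 changes of Il1rap, Nlrp6, Nfkbie and Tlr13 were 0.30, 0.57, -0.41 and -0.40 in that fit and still passed. With no filter on low counts the calls of Nfkb1, Rnf31, Traf3, Cd40, Tnfrsf1a, Nlrc4 and Itgb2 were lost. By limma voom the log2 change of Cd40 was -1.05.

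Without UCMSC-Exos 9 more genes of these lists passed as lower, as did more of all genes tested. There were 11 of 15 inflammasome genes, 10 of 15 Toll-like receptors and co-receptors, 8 of 11 genes of the non-canonical arm, 6 of 14 IkB proteins and feedback inhibitors and 11 of 19 other targets. There were also 5 of 9 genes for TNF processing, ligands and receptors, 5 of 11 adhesion molecules and integrins, 4 of 9 other cytokines and 3 of 5 subunits. In that fit 4 of 12 interleukin-1 family genes passed as higher and 3 as lower, and 5 of 23 IKK and adaptor genes passed as higher and 4 as lower. Of all 16326 genes tested in that fit, 2456 passed as higher and 3367 (20.6%) as lower.

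**Figure D5:**
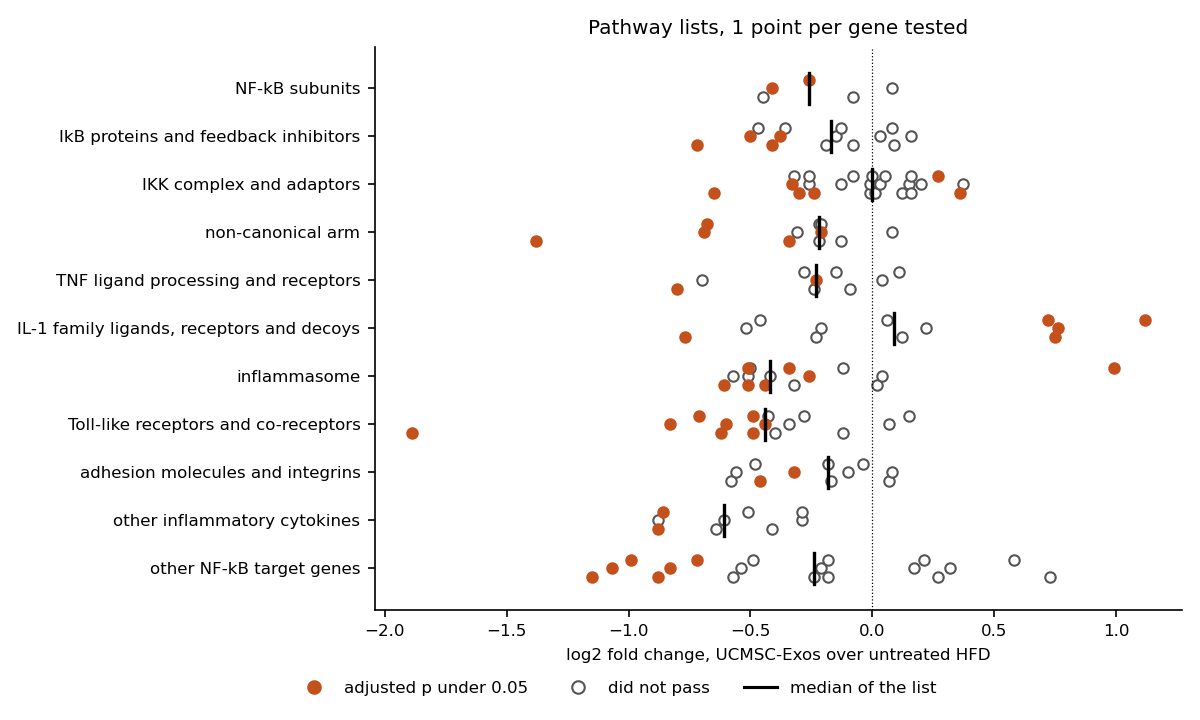
Fitted log2 change (UCMSC-Exos over untreated high-fat diet) of each tested gene in 11 pathway lists, 1 point a gene, filled where edgeR's adjusted p was under 0.05, with the list median as a bar. Calls lie left of 0 in most lists, and those right of 0 are the 4 receptor chains of the interleukin-1 family, Nlrp6, Chuk and Ticam1.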

How the data were processed

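Liver RNA-seq of 8 UCMSC-Exos and 9 untreated mice was read from the whole-series table of counts that the authors deposited. Per the submitters' processing notes, fastp 1.3.3, HISAT2 2.2.1, featureCounts (Subread 2.0.2) and build mm10 were used. Per the file headers, featureCounts 2.1.1 counted paired reads singly, without strand and without multi-mapping reads, on GENCODE vM25, so overlapping genes on opposite strands cannot be told apart. The exon lengths are deposited in the same table. Of 55401 gene IDs 55141 matched a symbol. A single per-sample column, 1 in all, matched no sample label and was not used.

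Genes were filtered with edgeR's filterByExpr (minimum count 10) and tested with edgeR 4.0.16 (R 4.3.3), TMM scaling and the robust quasi-likelihood F test, two-sided, with Benjamini-Hochberg adjustment over 16238 genes. Calls had an adjusted p under 0.05. edgeR estimated a common biological coefficient of variation of 0.29. Levels are CPM on the effective library size. RPKM is CPM per kilobase of exon. SE is the fitted change divided by the square root of F. The tests assume that each library is a separate mouse, as the group sizes in the series description imply. On simulated counts of 15993 genes for this comparison, changes of 0.5, 1 and 2 on the log2 scale were recovered in 35.4%, 78.8% and 97.0% of changed genes. Of the 147 calls in the simulation, 8 were false. Only 200 genes were given a change, against 20.2% of genes called in the real data, and no simulated library stood apart. Recovery in the real comparison can therefore differ. Alternatives used DESeq2 1.42.0, limma 3.58.1 and sva 3.50.0. Precision rests on the depth of 32941467 to 36065074 reads a library, and read counts are not independent molecules.

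The 10 genes, the 11 pathway lists and the 10 marker lists were chosen with earlier results of these data known, so no p was adjusted over a list and no list was tested as a set. Named genes are the 10 and, in each pathway list, up to 3 further passing genes of smallest p. This gave 26 more genes. Promoter sequences are RefSeq's, build GRCm38.p6.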

Additional observations from a re-analysis of the deposited data

Results flagged for a closer look

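The 10 genes and the 26 further named genes were looked at in each group for a single library far from the others, 72 groups of values in all, and 12 were flagged. Chance flags about 1 in 20 groups.

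UCMSC-Exos 9 was the flagged library in 7 of the 12. It was the highest treated library for Nfkb1 at 72.3 CPM (others 50.3 to 58.2), for Zc3h12a at 15 CPM (others 8.89 to 10.4) and for Traf3 at 39.0 CPM (others 28.0 to 32.6). It was also the highest for Tlr13 at 31.3 CPM (others 11.8 to 15.3) and for Cxcl16 at 34.3 CPM (others 13.3 to 17.8). It was the lowest treated library for Il1rap at 71.4 CPM (others 123 to 156) and for Nlrp6 at 107 CPM (others 241 to 301).

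Untreated 3, the library with pancreas transcripts, was flagged 3 times. It was the lowest untreated library for Il18 at 6.0 CPM (others 8.78 to 12.9), and the highest for Icam1 at 86.2 CPM (others 34.1 to 51.9) and for Rnf31 at 45.2 CPM (others 33.3 to 38.2). Untreated 8 was the lowest untreated library for Traf3 at 30.7 CPM (others 35.3 to 39.4), and untreated 1 was the lowest for Itgb2 at 58.1 CPM (others 74.7 to 95.1).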

How the results depend on the processing

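Of the 10 genes 2 passed as lower in the edgeR fit, 2 also with a filter of 1 CPM in 8 libraries, and 3 by DESeq2. The count was 0 with RLE scaling, upper quartile scaling, no filter, surrogate variables or the replicate block. It was 1 (Icam1) without untreated 3 and 9 together and 8 by limma voom with quality weights. Of all genes tested, 1708 of 16096 passed as lower with the replicate block and 1580 of 16229 without untreated 3 and 9. Over the 17 fits that left out 1 library each, the count ranged from 0 to 7. The cause was not tested. No setting called any of the 10 higher. The count over all genes, 3274, was 1549 with surrogate variables and 7711 by limma voom, and ranged from 2005 (without UCMSC-Exos 3) to 5823 (without UCMSC-Exos 9), with 2086 without UCMSC-Exos 2. The log2 change of Il18 ranged from -0.08 to 0.13 over the fits that left out 1 library, and it reversed to -0.28 with surrogate variables, -0.06 by limma voom, -0.01 without untreated 3, -0.08 without UCMSC-Exos 5 and -0.04 without untreated 3 and 9, and that of Nfkbia to -0.01 with surrogate variables. None of the 26 further named genes reversed, and none lost its call with RLE, upper quartile, the CPM filter, DESeq2 or limma voom. With no filter 7 lost it, with surrogate variables 9, with the replicate block 5 (Nfkb1, Zc3h12a, Rnf31, Traf3 and Tnfrsf1a), and without untreated 3 and 9 only Itgb2.

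The labels number the samples in each group. The block on that number called 3029 genes. Same-numbered samples showed no clear common deviation, since 2 of 8 pairs had a correlation over 0.1 and none correlated best with its own number. This check cannot exclude that same-numbered samples share a batch, and the labels name none. Depth limits Tnf most, with as few as 12 reads in a library. A change of 0.5 on the log2 scale was recovered in 35.4% of simulated cases, a share that can differ in the real comparison.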

Other observations

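Several classical inflammatory cytokines were too scarce to test. Of 16 other inflammatory cytokines, Csf2, Csf3, Ifng, Il11, Il12a, Il23a and Il6 did not pass the filter on low counts. Il6, the inducer of acute phase proteins, had a median of 0.0817 CPM and a highest level of 0.517 CPM in treated livers, against a median of 0.0567 CPM and a highest level of 0.348 CPM in untreated livers. Il1a, the interleukin-1 alpha that is active without cleavage, had 4.44, 7.0 and 8.18 CPM (lowest, median and highest) in treated livers, against 2.93, 5.52 and 9.29 CPM in untreated livers, and it did not pass edgeR's test. Both were named after their values were seen.

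The decoy and its ligand were compared within libraries for interleukin-18 as well. Il18bp encodes a secreted protein that binds interleukin-18 and keeps it from the receptor. Per length, the log2 ratio of Il18bp to Il18 averaged 0.48 ± 0.26 (SD, n = 8) in treated livers and 0.74 ± 0.22 (SD, n = 9) in untreated livers. UCMSC-Exos 9, at 0.73, had the highest ratio among treated libraries. The log2 ratio per length of Nfkb2 to Nfkb1 averaged -0.11 ± 0.27 (SD, n = 8) in treated livers and 0.08 ± 0.09 (SD, n = 9) in untreated livers, and it was highest in UCMSC-Exos 9, at 0.25. These ratios were not tested.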
